A study of Mus musculus with 43 samples.

Results

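The cells described here are irradiated mouse intestinal organoid cells that carried transcripts of *Ada*, *Il1rn*, *Anxa10* or *Sprr1a*. They were selected on those 4 values alone: a cell was counted when its unique molecular identifiers (UMIs, 1 per captured transcript) for the 4 genes summed to at least 5 per 10000 UMIs. Cells had at least 500 UMIs, with at most 20% from mitochondrial genes. By this rule 779 of 12323 cells in 4 single-cell libraries were marker-positive. The working name of the population was villus-tip and squamous-like. Villus-tip genes were high in some of the cells only, and most genes that define a squamous epithelium were at or near 0, so the cells are called marker-positive below.

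All organoids were primary intestinal organoids of wild-type (WT) C57BL/6 mice. For single-cell RNA-seq they received 4 Gy on day 4, then 1 ng/mL TGFB1 for 6, 15 or 24 h ahead of collection on day 8, or vehicle for 24 h (called 0 h here). Each time had 1 library, so the differences between times have no replicate check and no test was made on them. For bulk RNA-seq, organoids left non-irradiated (non-IR) or given 4 Gy on day 4 (IR) were exposed for 24 h, starting on day 6, to vehicle or TGFB1 at 2 ng/mL. The non-IR organoids were collected on day 7 (D7), and the IR organoids on D7 or on day 11 (D11), with 3 libraries a group. Sorted Ki67-RFP positive crypt cells of Mki67tm1.1Cle/J mice, from 1 non-irradiated control library and 2 libraries made 56 h after 12 Gy of whole-body irradiation, served as a further place to apply the rule. No source used here says whether replicates came from separate mice or cultures, so p-values measure only the spread between these libraries.

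Enterocytes are born in the crypt, migrate up the villus and are shed at its tip, and they change their gene program on the way. Tip enterocytes are known for purine handling: *Ada* encodes adenosine deaminase, which converts adenosine to inosine. *Il1rn* encodes the interleukin-1 receptor antagonist, *Anxa10* a calcium- and lipid-binding annexin best known from the stomach, and *Sprr1a* a small proline-rich protein that is cross-linked into the cornified envelope of squamous cells and is also induced by injury. After injury, intestinal epithelium can take on a fetal-like state marked by *Clu*, *Anxa1* and *Ly6a*, and TGFB1 is one signal known to drive that state.

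The start-site windows of the 4 genes are shown because the genes chose the cells and, in bulk RNA, responded to TGFB1. Each runs from 250 bases before to 50 bases after a gene start, 5′ to 3′ on the gene's strand, from RefSeq with build GRCm38.p6, and capitals mark the AP-1 motif TGANTCA on either strand. All 4 genes matched the table, *Il1rn* with 3 start sites, of which the first along the chromosome is printed. The windows lie at chr2:163750190-163750489 (minus strand, *Ada*), chr2:24336610-24336909 (plus strand, *Il1rn*), chr8:62123144-62123443 (minus strand, *Anxa10*) and chr3:92485832-92486131 (minus strand, *Sprr1a*).
Ada: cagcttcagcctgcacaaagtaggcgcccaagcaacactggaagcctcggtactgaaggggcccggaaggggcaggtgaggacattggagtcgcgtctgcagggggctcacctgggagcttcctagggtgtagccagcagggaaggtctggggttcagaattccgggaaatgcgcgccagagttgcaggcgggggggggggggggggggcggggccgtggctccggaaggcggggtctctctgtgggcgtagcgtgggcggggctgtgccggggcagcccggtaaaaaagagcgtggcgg
Il1rn: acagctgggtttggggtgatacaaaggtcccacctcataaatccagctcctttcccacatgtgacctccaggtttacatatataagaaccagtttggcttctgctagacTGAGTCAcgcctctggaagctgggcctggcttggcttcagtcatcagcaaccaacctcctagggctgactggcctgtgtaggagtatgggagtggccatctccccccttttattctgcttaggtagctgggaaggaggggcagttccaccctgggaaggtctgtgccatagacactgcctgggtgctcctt
Anxa10: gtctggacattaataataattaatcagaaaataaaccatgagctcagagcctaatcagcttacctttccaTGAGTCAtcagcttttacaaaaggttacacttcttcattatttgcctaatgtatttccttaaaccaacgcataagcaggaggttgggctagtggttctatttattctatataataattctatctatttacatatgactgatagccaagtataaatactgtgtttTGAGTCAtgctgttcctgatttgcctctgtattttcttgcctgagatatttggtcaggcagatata
Sprr1a: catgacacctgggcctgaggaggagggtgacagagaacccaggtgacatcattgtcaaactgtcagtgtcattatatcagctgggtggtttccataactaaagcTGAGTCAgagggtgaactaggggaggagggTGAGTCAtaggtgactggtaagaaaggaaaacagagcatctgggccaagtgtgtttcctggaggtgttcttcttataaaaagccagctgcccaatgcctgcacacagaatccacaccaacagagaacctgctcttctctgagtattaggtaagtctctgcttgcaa
The AP-1 motif was found once in the *Il1rn* window and at 2 places each in the *Anxa10* and *Sprr1a* windows, and the *Ada* window held 0 matches. Of 32851 windows of this length in the table, 7.81% held it. The TEAD motif GGAATG (14.7% of all windows) and the SMAD motif CAGACA (21.0%) had 0 matches in the 4 printed windows, and no matches of different motifs overlapped. One TEAD match lay in the window of another *Il1rn* start. A match describes these letters and is not evidence of a bound site.

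The marker-positive share was lowest at 6 h and highest at 24 h. It was 107 of 2932 cells (3.65%, 95% Clopper-Pearson interval 3.00 to 4.39) at 0 h and 128 of 4283 (2.99%, 2.50 to 3.54) at 6 h. It was 215 of 2890 (7.44%, 6.51 to 8.46) at 15 h and 329 of 2218 (14.8%, 13.4 to 16.4) at 24 h. The intervals cover counting error only. Those of 0 and 6 h overlapped, and those of 15 and 24 h lay above both. Just outside the threshold, 12, 23, 27 and 57 cells held 4 to 5 marker UMIs per 10000 at 0, 6, 15 and 24 h, and just inside it 8, 11, 23 and 46 cells held 5 to 6. The median marker sum of the marker-positive cells was 10.8, 14.5, 16.7 and 12.6 per 10000 UMIs. With a threshold of 10 the shares were 2.01, 2.01, 4.88 and 8.84%, so 0 and 6 h were level. With a threshold of 3 the 6 h share (5.23%) exceeded the 0 h share (4.71%).

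Sequencing depth did not separate the marker-positive cells from the rest at most times. Their median was 7502, 7178, 7137 and 8312 UMIs at 0, 6, 15 and 24 h, against 8216, 6696, 7844 and 10767 in the other cells. Their median mitochondrial share was higher at every time, at 3.94, 3.47, 6.04 and 5.25% against 2.94, 3.22, 4.27 and 4.77%. Of the marker-positive cells, 3, 2, 12 and 32 held over 3 times their library's median UMIs, among 48, 56, 83 and 140 such kept cells. No doublet caller was run. One cell barcode was shared by the 15 and 24 h libraries, and no marker-positive barcode was shared.

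**Figure D1:**
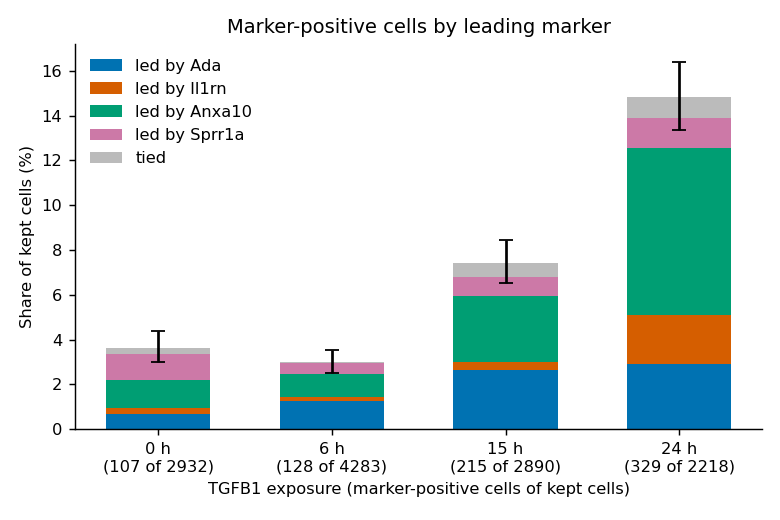
Share of kept cells that were marker-positive at each TGFB1 exposure (bars, %), divided by the marker with the most UMIs in the cell. Black bars are 95% Clopper-Pearson intervals of the whole share, which was 3.65, 2.99, 7.44 and 14.8%, and the Anxa10-led band is the tallest at 15 and 24 h.

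The 4 markers followed different courses inside the marker-positive cells; since these values chose the cells they are a description. The level of *Ada* in CPM (UMIs scaled to a common library total) was 422 at 0 h and 1238 at 6 h. It was 2643 at 15 h and 703 at 24 h, so this summed level peaked at 15 h. The median *Ada* value per cell, in the unit of the marker threshold, was 0, 3.76, 2.89 and 0.552. *Ada* was detected in 46.7, 72.7, 67.9 and 58.7% of these cells, so median and detection were highest at 6 h. The upper quartile per cell was 13.7 at 6 h and 16.4 at 15 h. The level of *Il1rn* was 183, 145, 320.1 and 404 CPM and that of *Anxa10* was 459, 581, 936 and 794 CPM. The level of *Sprr1a* was 410.0, 286, 184 and 159 CPM, lower at each later time. In the other cells *Il1rn* went from 1.66 CPM at 0 h to 19.8 at 24 h and *Anxa10* from 5.51 to 39.9, while *Ada* lay between 10.5 and 21.5. *Sprr1a* was not lower at each later time in the other cells, at 2.24, 1.75, 3.46 and 4.28 CPM. Among the *Il1rn* UMIs of the marker-positive cells 7.95 to 35.6% were fractional, meaning that the authors' counting had split reads between genes.

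How often a marker was detected is given beside a cell type that should lack it, and in the marker-positive cells the rule itself fixed this. At 24 h *Anxa10* had a UMI in 89.1% of marker-positive cells and 25.2% of other cells. After thinning every cell to 2000 UMIs these shares were 64.4 and 7.36%. In 32 enteroendocrine cells of that library, chosen by *Chga*, *Chgb*, *Neurod1* and *Pax6* and serving as a type that should lack the marker, *Anxa10* had a UMI in 6.25%, at a median of 4072 UMIs, and in 6.25% after thinning. Marker-positive cells had been left out of this enteroendocrine set beforehand, which limits how high a marker can be in it. The thinned *Anxa10* share of the other cells lay inside the wide interval of those 32 cells (0.766 to 20.8%). The *Anxa10* levels were 39.9 CPM in the other cells and 18.9 CPM in the enteroendocrine cells, the latter from 3 UMIs. *Ada* stood at 18.8% in those enteroendocrine cells and at 19.0% in the other cells, at a median depth of 10767 UMIs in the latter. After thinning, the *Ada* shares were 9.38% (of 32 cells) and 3.60%, and the *Ada* levels were 37.8 and 17.0 CPM, so *Ada* in the other cells was not above its level in the enteroendocrine cells. That enteroendocrine level rests on 6 UMIs (interval 13.9 to 82.2 CPM).

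**Figure D2:**
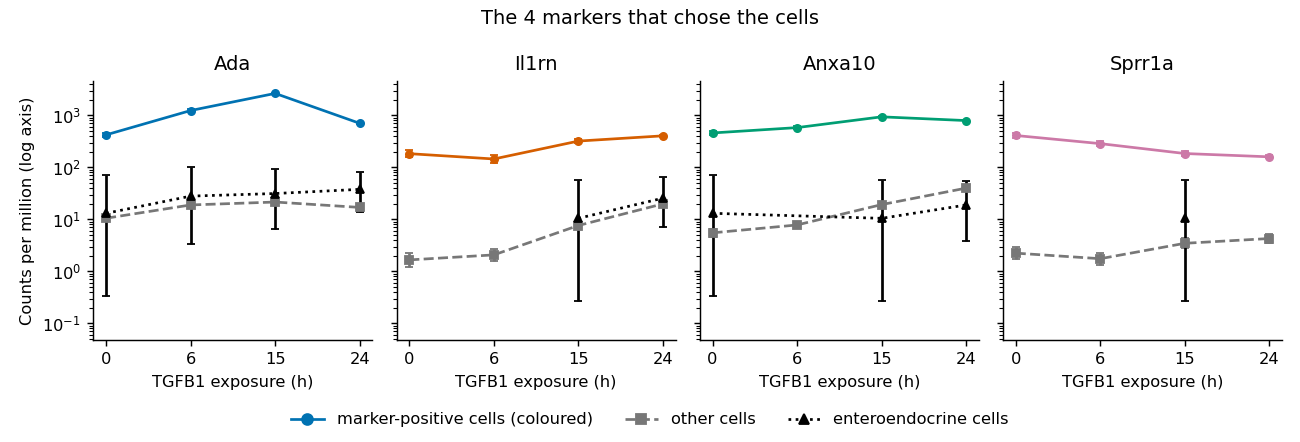
Level of each marker (CPM, log axis) against TGFB1 exposure in marker-positive cells (coloured circles), other cells (grey squares) and enteroendocrine cells (black triangles; values of 0 are not drawn), with exact 95% Poisson intervals of the summed counts. The summed Ada level peaks at 15 h with 2643 CPM in marker-positive cells. Il1rn and Anxa10 are higher at 24 h than at 0 h in the other cells as well.

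Most marker-positive cells held more than 1 of the 4 transcripts. At least 2 were detected in 75.8% of them at 6 h, 81.9% at 15 h and 85.4% at 24 h, while 30 of 107 cells held a single marker at 0 h. The cells were then divided by the marker with the most UMIs. *Ada* led in 20, 55, 76 and 65 cells, *Il1rn* in 8, 6, 11 and 48, *Anxa10* in 37, 45, 85 and 166, and *Sprr1a* in 33, 20, 24 and 29, with 9, 2, 19 and 21 ties. As a share of all kept cells, *Ada*-led cells went from 0.682% at 0 h to 2.93% at 24 h, *Il1rn*-led cells from 0.273 to 2.16% and *Anxa10*-led cells from 1.26 to 7.48%. *Sprr1a*-led cells were 1.13% at 0 h (interval 0.776 to 1.58) and 1.31% at 24 h (0.877 to 1.87), with overlapping intervals.

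The label was checked against marker lists, leaving out the 4 choosing genes. On the villus-tip side the summed level was 6868, 9779.6, 8024 and 5067 CPM in the marker-positive cells against 2964, 3654, 4383 and 4781 CPM in the others, so the gap was large until 15 h and nearly gone at 24 h. *Krt20*, a keratin of differentiated enterocytes, was at 878, 2895, 1647 and 864 CPM against 133, 345, 352 and 363 CPM. *Apoa4*, an apolipoprotein of the upper villus, was at 3112, 3848, 3397 and 1954 CPM against 763, 1211, 1427 and 1629 CPM. On the squamous side 7 of the 19 other genes of the list had 0 UMIs in every marker-positive cell, among them *Trp63*, the master factor of squamous epithelium, *Ivl*, *Krt13* and *Sprr3*. *Krt5* had at most 5 UMIs in a library (in 3 cells at 0 h), and *Krt14* had 42 UMIs in 8 cells at 24 h. *Anxa8* was the only gene of that list above the expression floor, at 1.99, 43.3, 159 and 160.0 CPM.

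Against the other cells of the same library, the marker-positive cells were higher in *Lgals3*, *Tm4sf4* and other genes named below, and lower in *Olfm4* and several other crypt stem cell genes. Of 6303 genes with a mean of at least 20 CPM, 168 (2.67%) were higher and 58 (0.92%) lower, by 2-fold or more in each of the 4 libraries. Ratios are log2 of CPM plus 5, and a contrast between cells chosen on expression carries no test. The median log2 ratio of all genes was -0.04.

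The naming rule gave 15 genes on the high side. *Lgals3*, encoding the lectin galectin-3, was at 332, 629, 1534 and 1344 CPM in the marker-positive cells and at 9.30, 31.4, 67.5 and 84.1 CPM in the others. It had the largest gap in the library where its gap was smallest (log2 ratio 3.92 at 24 h). *Tm4sf4*, a tetraspan membrane protein, was at 3106, 2779, 2806 and 1279.5 CPM against 68.0, 61.3, 52.8 and 80.3. It was detected in 83.7 to 95.3% of marker-positive cells. *Ly6d*, a surface antigen of squamous and progenitor cells, was at 67.5, 153, 154 and 134 CPM against 0.380, 1.37, 2.19 and 4.36. *Ly6d* rested on few cells, since 5.61% of marker-positive cells had a UMI at 0 h and 47.1% of those UMIs lay in 1 cell. *Msln*, encoding mesothelin, was at 93.3, 167, 165 and 67.5 CPM against at most 1.72 CPM in the others. *Gprc5a*, an orphan receptor, was at 112, 221, 191 and 143 CPM against 4.66 to 6.42 CPM.

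Another 9 were *Sprr2a1*, *Sprr2a2*, *Capg* (an actin-capping protein), *Serpinb5* (maspin), *Anxa1*, *Anxa5*, *S100a6*, *Anxa3* and *Capn2* (a calpain protease). Their mean log2 ratios ran from 3.03 (*Capn2*) to 4.29 (*Sprr2a2*). *Sprr2a1* and *Sprr2a2* are near-identical copies and 77.0 to 92.4% of the *Sprr2a1* UMIs were fractional, so the split between copies is uncertain. Summed over *Sprr2a1*, *Sprr2a2* and *Sprr2a3*, they reached 13937, 19321, 32233 and 21406 CPM in the marker-positive cells, 74.8, 20.3, 12.1 and 7.06 times the level of the others. The other cells were at 186, 951, 2666 and 3032 CPM, so between 15 and 24 h the level was lower in the marker-positive cells and slightly higher in the others. At 24 h *Sprr2a1* had a UMI in 97.8% of the other cells.

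The 10 genes on the low side were led by crypt genes. *Olfm4*, a stem cell gene, was at 149.9, 234, 299 and 257 CPM in the marker-positive cells and at 2035, 2233, 2406 and 1874 CPM in the others. *Olfm4* was joined by genes that belong to crypt or Wnt-responsive cells: *Smoc2*, *Cdca7*, *Axin2* and *Aldh1b1*, with mean log2 ratios of -2.32, -2.63, -2.38 and -2.18. The others were *Oat*, *Ifitm3*, *Gvin-ps1*, *Gkn3* and *Cps1*. *Cps1* and *Oat* encode mitochondrial enzymes of ammonia and ornithine metabolism, and *Cps1* had a mean log2 ratio of -1.88 and *Oat* of -2.46. *Gkn3* had 0 UMIs in the marker-positive cells at 0 h, which allows up to 2.98 CPM.

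**Figure D3:**
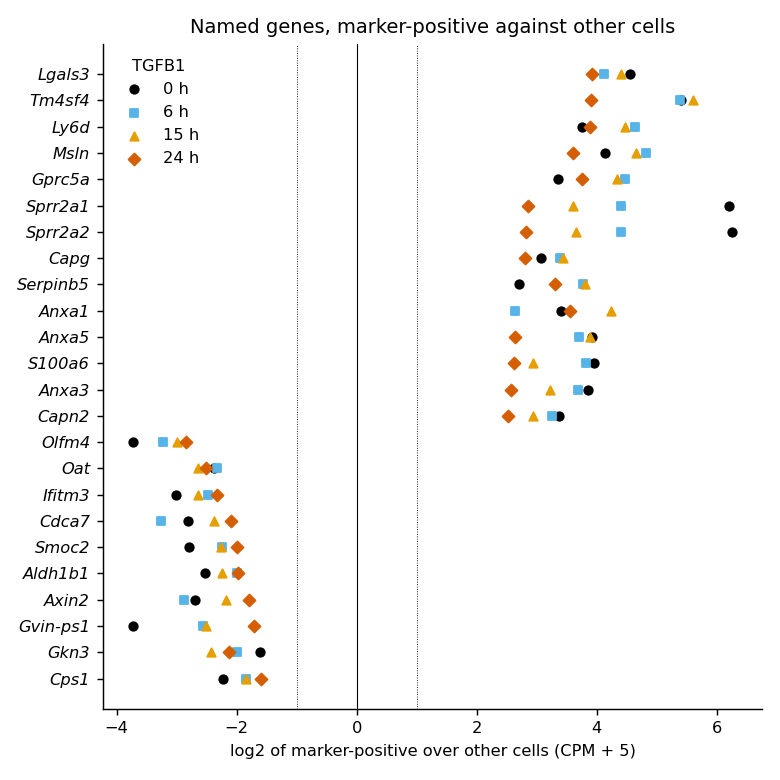
Log2 ratio of marker-positive over other cells (CPM plus 5) for the reported genes on the high side and the 10 on the low side, with 1 symbol for each library; dotted lines mark 2-fold. All genes drawn lie beyond 2-fold in all 4 libraries, as the naming rule requires, with Sprr2a1 and Sprr2a2 moving most between libraries.

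The gene lists placed these differences in groups, to be read against the shares above. All 12 measured genes of the fetal and regenerative list were at least 2-fold higher in all 4 libraries, with a median log2 ratio of 2.82; another 8 genes of that list were under the floor, *Ly6a* among them. *Krt7*, a keratin of simple ductal epithelium, was at 412, 806, 1344 and 1431 CPM against 81.3, 174, 283 and 403. *Cldn4*, a tight junction claudin, was at 537, 716, 1035 and 1375 CPM against 78.3, 113, 248 and 379. Of the other annexins 5 of 9 were higher, including *Anxa2* (2088, 2632, 3186 and 2674 CPM against 250.1, 369, 458 and 509). Among proteases, inhibitors and cornification partners 3 of 7 were higher, namely *Serpinb1a*, *Serpinb5* and *Plaur*. Of the purine list 2 of 10 were higher: *Slc28a2*, a nucleoside transporter, and *Nt5c2*, a nucleotidase. *Nt5e*, which makes adenosine, stayed under the floor at 4.96, 22.1, 21.9 and 6.38 CPM, against at most 1.72 CPM in the others. Of 13 villus-tip genes 3 were higher (*Krt20*, *Enpp3* and *Slc28a2*) and 1, *Fos*, was lower. None of 15 general enterocyte genes and none of 10 TGFB response genes passed 2-fold either way.

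Proliferation and stem lists lay on the other side. All 12 proliferation genes were below the other cells in all 4 libraries, 2 of them by 2-fold, with a median log2 ratio of -1.64. Of 7 stem cell genes 4 were at least 2-fold lower, with a median of -2.32. Of 6 p53 target genes only *Cdkn1a*, a cell cycle inhibitor, was higher, at 411, 455, 335 and 310 CPM against 97.7, 117, 111 and 120. *Ctse*, a gastric protease, was higher, while the stomach genes *Gkn2* and *Muc5ac* had 0 UMIs in every marker-positive cell. No gene of the immune, tuft or mesenchymal lists passed the floor, and their summed levels in the marker-positive cells were at most 43.8, 12.7 and 5.53 CPM. Without the 24 h library the counts of higher and lower genes were 269 and 206 of the genes measured, and 167 and 58 of the original calls were among them.

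With longer TGFB1 exposure the marker-positive cells held less of the enterocyte program and more of *Clu* and its partners. Of 6074 genes measured in them, 360 (5.93%) were higher and 304 (5%) lower by 2-fold or more at 24 h than at 0 h. In the other cells 163 (2.56%) of 6362 were higher and 59 (0.927%) lower. The marker-positive profiles rest on 1007363 to 4700162 UMIs a library and those of the other cells on far more, so counting error is larger in the former. The median log2 change was 0.04 in the marker-positive and 0.01 in the other cells.

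Among the 10 genes highest at 24 h, *Clu*, encoding the chaperone clusterin, was at 70.5, 233, 1151 and 1790.2 CPM at 0, 6, 15 and 24 h. In the other cells it was at 11.1, 62.3, 255 and 589 CPM, so it was higher at each later time in both kinds of cells. *Sox4*, a transcription factor, was at 21.8, 70.7, 312 and 677 CPM in the marker-positive cells against 168, 274, 457 and 549.7 in the others, so it began lower and ended higher. *Anxa8* was at 1.99, 43.3, 159 and 160.0 CPM against 0.0759, 0.510, 2.19 and 6.29. *Lama3*, a chain of a basement membrane protein, was at 0.993, 64.5, 117 and 109.6 CPM, most of the difference being present at 6 h. *Pmepa1*, a feedback inhibitor of TGFB signalling, was at 28.8, 258, 377 and 526 CPM in the marker-positive cells and 15.1, 157, 219 and 299 in the others. *Thbs1*, *Tuba1a*, *Marcksl1* and *Tnfrsf11b* were in this set as well. *Pyy*, an enteroendocrine hormone, had 0 UMIs at 0 and 6 h and 748 at 24 h, but in 29 of 329 cells, with 32.9% of the UMIs in 1 cell. *Chga*, the general enteroendocrine marker, had a UMI in 6.38% of marker-positive and 8.21% of other cells at 24 h. *Neurod1* (1.52 against 1.75%) and *Gcg* (6.69 against 7.09%) were also less frequent there, while *Chgb* was more frequent (24.3 against 17.5%). The summed enteroendocrine list, which includes *Pyy*, was at 247 CPM against 181 CPM in the other cells at 24 h. The part of enteroendocrine cells or doublets in the *Pyy* value was not tested.

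The genes lowest at 24 h relative to 0 h included *Anpep*, *Scin* and *Pnliprp2*. *Anpep*, a brush border peptidase, was at 355, 263, 119 and 43.6 CPM, against 114, 103, 71.0 and 86.0 in the other cells. *Scin*, an actin-severing protein, went from 650.2 to 62.1 CPM. *Pnliprp2*, a lipase, was at 352, 443, 380.1 and 47.7 CPM, so it was low at 24 h only. *Leap2*, *Cyp2c29*, *Gstm3*, *Ces1f*, *Slc39a8* and *Dnah2* were also in the set. Of 15 enterocyte genes 10 were at least 2-fold lower and none higher, with a median log2 change of -1.58, against -0.34 for the same genes in the other cells. Of 13 fetal and regenerative genes 7 were higher and none lower. Their median log2 change was 1.04 here and 2.11 in the other cells, so this list rose more in the others. Of 10 TGFB response genes 8 were higher, with a median of 1.47 here and 1.25 in the others.

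Compared with the change in the other cells, *Dmbt1*, a secreted scavenger receptor, and *Cwh43* also differed most upward, with *Pyy*, *Anxa8* and *Sox4*. *Dmbt1* was at 40.7, 183, 242 and 341 CPM in the marker-positive cells and at 457, 705, 600.1 and 383 in the others. *Muc3*, a membrane mucin, and *Apoc2*, an apolipoprotein, differed most downward, with *Sprr2a1*, *Sprr2a2* and *Scin*. *Muc3* was at 441, 485, 363 and 82.8 CPM against 49.8, 94.5, 76.4 and 74.7, so the 2 kinds of cells were close at 24 h.

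*Clu* cells took a larger share at each later time among both the marker-positive and the other cells. Absorptive cells took a smaller share in both, with the larger drop among the marker-positive cells. Cells with at least 5 *Clu* UMIs per 10000 were 3.74, 9.38, 30.2 and 41.0% of the marker-positive cells at 0, 6, 15 and 24 h, against 0.389, 3.25, 15.4 and 30.8% of the other cells. Cells with at least 50 *Fabp1* UMIs per 10000, an absorptive group, were 43.9, 43.0, 19.1 and 8.51% against 45.7, 43.8, 43.0 and 31.6%. At most 3 marker-positive cells in a library belonged to both groups. In reverse, 26.7, 8.16, 13.7 and 18.9% of *Clu* cells and 3.52, 2.93, 3.45 and 4.49% of *Fabp1* cells were marker-positive. The *Clu* value at 0 h rests on 4 of 15 cells.

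Divided by the leading marker, the cells differed in the course of their enterocyte genes. *Ada*-led and *Sprr1a*-led cells kept a high enterocyte program: its summed level was 39018, 42543, 32888 and 32061 CPM in *Ada*-led cells and 42550, 36652, 43165 and 34412 CPM in *Sprr1a*-led cells. *Anxa10*-led cells held 26196, 23670, 10138 and 9998 CPM and *Il1rn*-led cells 15057, 13388, 4772 and 3742 CPM. *Apoa4* was at 6211, 6452, 6693 and 8411 CPM in *Ada*-led cells, higher at each later time. In *Anxa10*-led cells it was at 1696, 1559.7, 934 and 753 CPM, lower at each later time. At 24 h *Krt20* was at 2231 CPM in *Ada*-led, 1704 in *Sprr1a*-led, 651 in *Anxa10*-led and 421 in *Il1rn*-led cells.

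At 24 h the fetal and regenerative genes were instead higher, in sum, in *Il1rn*-led and *Anxa10*-led cells than in the other groups. The summed level of these genes was then 20985 CPM in *Il1rn*-led and 20943 in *Anxa10*-led cells, against 11907 in *Sprr1a*-led and 7969 in *Ada*-led cells. *Clu* was at 405, 496, 2162 and 2645 CPM in *Il1rn*-led cells and at 38.8, 423, 1590.1 and 2076 CPM in *Anxa10*-led cells. It was at 52.5, 79.6, 718 and 161 CPM in *Ada*-led and 3.66, 70.2, 365 and 221 CPM in *Sprr1a*-led cells. *Anxa1* at 24 h was at 696 and 515 CPM in *Il1rn*-led and *Anxa10*-led cells, at 211 CPM in *Sprr1a*-led cells and at 24.4 CPM in *Ada*-led cells. *S100a6*, a calcium-binding protein, was at 5979 and 7406 CPM in the former pair, 3840.3 CPM in *Sprr1a*-led and 1390.0 CPM in *Ada*-led cells. *Sprr1a*-led cells thus lay between the others for both genes at 24 h. The *Il1rn*-led groups are small at 0, 6 and 15 h (8, 6 and 11 cells). A cell is placed by its own marker UMIs, so the leading marker's level in each group is fixed by the division.

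**Figure D4:**
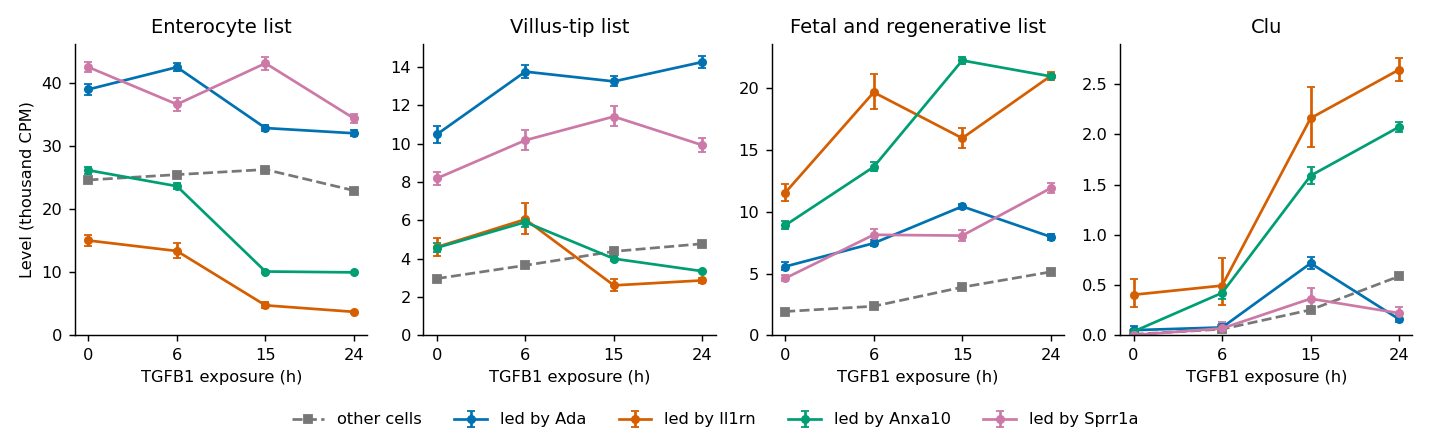
Summed level of 3 gene lists and level of Clu (CPM, at the scale the axis label gives) against TGFB1 exposure, equally spaced, in marker-positive cells divided by leading marker (colours, exact 95% Poisson intervals) and in other cells (grey dashes). At 24 h Ada-led and Sprr1a-led cells are at 32061 and 34412 CPM on the enterocyte list, while Anxa10-led and Il1rn-led cells are at 9998 and 3742 CPM and carry the most Clu.

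The same rule was applied to crypt cells sorted from mice. It found 0 of 1846 cells in the non-irradiated library, which allows a share of up to 0.163%. After irradiation it found 30 of 719 (4.17%) and 30 of 699 (4.29%) cells. *Il1rn* led in 21 and 23 of the 30, and *Ada* in 1 and 2. With 1 non-irradiated library this difference has no test. The cells were sorted for a reporter of cycling cells, unlike the organoid cells.

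The genes named in the organoids were then read in these 2 irradiated libraries, which had no part in choosing them. Of 6423 genes measured, 2.43% were higher and 2.66% lower by 2-fold or more in marker-positive cells of both libraries. Of the 164 genes high in organoid marker-positive cells (the 4 markers left out), 138 were measured and 72 were at least 2-fold higher in both, with 0 lower. Of the 58 low genes 49 were measured, and 11 were lower and 0 higher. *Gprc5a* was at 132 and 126 CPM in marker-positive cells against 17.2 and 25.7 in the others. *Msln* had 0 UMIs in both sets of marker-positive crypt cells, against 67.5 to 167 CPM in the organoids, the 1 gene of the 15 under the floor here. *Sprr2a2* was the 1 measured gene of the 15 that missed 2-fold in a library (log2 ratio 0.90).

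Bulk RNA gave replicated tests of the 4 markers, in libraries that had no part in choosing the cells. In bulk RNA, more cells of a type and more RNA per cell cannot be told apart. Values are FPKM (fragments per kilobase of transcript, scaled to library size) and effects are log2 of FPKM plus 1, TGFB1 minus vehicle, with the standard error (SE) and Benjamini-Hochberg adjusted p of limma over all genes. TGFB1 moved most of the transcriptome: of 11330 genes in non-IR D7 organoids 33.3% were higher and 34.9% lower, of 11258 in IR D7 organoids 35.8 and 39.7%, and of 11479 in IR D11 organoids 32.3 and 31.6%. A call by itself is therefore common, and sizes say more.

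*Il1rn*, *Anxa10* and *Sprr1a* rose with TGFB1 in all 3 conditions. *Il1rn* in IR D7 organoids was at 17.0, 18.0 and 16.9 FPKM with vehicle and 204, 199 and 225 FPKM with TGFB1, a log2 effect of 3.52 (SE 0.05, adjusted p = 1.2e-11). In non-IR D7 organoids *Il1rn* was at 5.42, 6.43 and 5.43 against 24.0, 25.2 and 23.9 FPKM (1.91, SE 0.06, adjusted p = 7.5e-10). The groups did not overlap in either condition, and at D11 *Il1rn* was still higher, at 93.5, 95.3 and 71.8 against 32.9, 35.9 and 37.6 FPKM (1.26, SE 0.11, adjusted p = 8.3e-06). *Anxa10* was at 20.5, 19.6 and 22.4 FPKM with vehicle and 205, 213 and 245 with TGFB1 in IR D7 organoids (3.34, SE 0.07, adjusted p = 3.2e-10). In non-IR D7 organoids *Anxa10* was at 24.9, 24.1 and 25.2 against 164, 164 and 153 FPKM (2.65, SE 0.04, adjusted p = 4.5e-12). At D11 *Anxa10* was at 6.92, 8.25 and 11.1 against 70.0, 69.3 and 67.6 FPKM (2.87, SE 0.13, adjusted p = 2.3e-07). The *Anxa10* groups did not overlap, with mean ratios of 6.48 (non-IR D7), 10.6 (IR D7) and 7.88 (D11).

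*Sprr1a* had its largest effect without irradiation. It was at 84.5, 87.3 and 88.0 FPKM with vehicle and 624, 703 and 605 with TGFB1 in non-IR D7 organoids (2.88, SE 0.05, adjusted p = 1.9e-11). In IR D7 organoids *Sprr1a* was at 153, 158 and 174 against 528, 506 and 546 FPKM (1.70, SE 0.05, adjusted p = 9.0e-10). At D11 it was at 72.2, 118 and 142 against 597, 617 and 514 FPKM (2.42, SE 0.23, adjusted p = 3.8e-05). TGFB1 groups lay above vehicle groups throughout, and the D11 vehicle libraries spread the most.

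*Ada* was the exception in direction. In non-IR D7 organoids it rose from 39.6, 35.1 and 37.5 to 61.9, 71.8 and 61.4 FPKM (0.78, SE 0.06, adjusted p = 1.8e-06). In IR D7 organoids it rose from 46.0, 46.2 and 50.0 to 301, 318 and 321 FPKM (6.61-fold in the means, adjusted p = 1.8e-11 in limma). At D11 *Ada* was lower after TGFB1, at 10.5, 11.5 and 13.8 FPKM against 25.1, 35.7 and 54.4 with vehicle (-1.55, SE 0.28, adjusted p = 0.00367). The groups did not overlap in any of the 3 conditions.

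**Figure D5:**
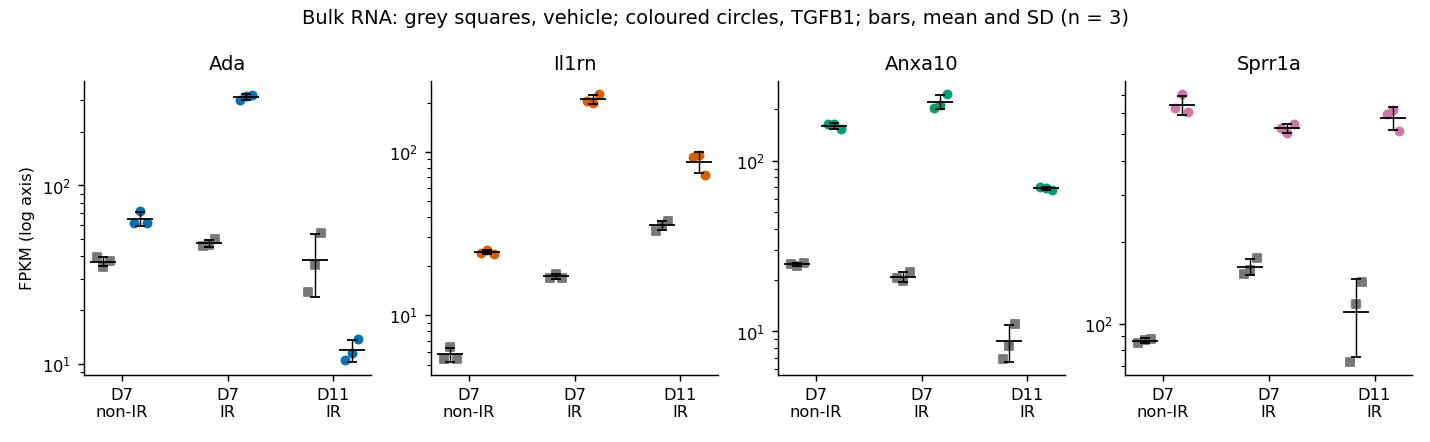
FPKM (log axis) of the 4 markers in each of the 18 bulk libraries, grey squares for vehicle and coloured circles for TGFB1, with mean and SD (n = 3). TGFB1 libraries lie above vehicle libraries in every panel except Ada at D11, where they lie below.

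The size of the effect was compared between conditions with interaction terms in the same limma model. The conditions come from tables that may have been normalized separately, and a factor common to a table cancels from these terms apart from the added 1. Of 11411 genes 25.3% had a higher and 27.8% a lower effect in IR than in non-IR D7 organoids. *Ada* (log2 difference 1.92, SE 0.08, adjusted p = 6.2e-10), *Il1rn* (1.61, SE 0.08, adjusted p = 2.6e-09) and *Anxa10* (0.69, SE 0.09, adjusted p = 1.2e-05) had a larger effect after irradiation. *Sprr1a* had a smaller one (-1.18, SE 0.08, adjusted p = 3.3e-08). Between D11 and D7 of IR organoids, of 11456 genes 31.5% had a higher and 33% a lower effect. *Ada* differed by -4.25 (SE 0.31, adjusted p = 1.0e-06) and *Il1rn* by -2.26 (SE 0.13, adjusted p = 8.7e-09). *Anxa10* differed by -0.48 (adjusted p = 0.025) and *Sprr1a* by 0.72 (adjusted p = 0.030). *Anxa10* lost the threshold without D7 IR vehicle replicate 2, D7 IR TGFB1 replicate 3 or D11 TGFB1 replicate 3, and with quantile normalization (-0.17, adjusted p = 0.419), and it was -0.31 without D11 vehicle replicate 3. *Sprr1a* lost it without D7 IR vehicle replicate 3, D7 IR TGFB1 replicate 1 or 2, or D11 TGFB1 replicate 1 or 2 (adjusted p 0.0518 to 0.0653), and it was 0.44 without D11 vehicle replicate 1.

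The genes that set marker-positive cells apart were read in the same bulk contrasts, as counts beside the shares of all genes. Of 154 measured in IR D7 organoids (4 markers left out), 147 were higher and 2 lower with TGFB1, against 35.8 and 39.7% of all genes. The median effect was 1.45 against -0.03 for all genes. In non-IR D7 organoids 144 of 153 were higher (median 1.10), and at D11 111 of 153 (median 0.70), against 33.3 and 32.3% of all genes. Of 51 measured low genes 46 were lower in IR D7 organoids, 39 in non-IR D7 organoids and 31 at D11. The shares of all genes lower were 39.7, 34.9 and 31.6%. *Lgals3* rose by 3.57 (SE 0.08, adjusted p = 1.2e-09) in IR D7 organoids. *Tm4sf4* rose by 1.36 (SE 0.05, adjusted p = 2.9e-09) there, and at D11 its effect was -0.46 (SE 0.19, adjusted p = 0.064). *Gkn3*, lower in marker-positive than in other cells, rose by 2.14 with TGFB1 in IR D7 organoids (SE 0.13, adjusted p = 3.2e-06). In the single cells *Gkn3* was likewise higher at 24 h than at 0 h in both kinds of cells. It was at 10.3, 37.7, 87.5 and 57.1 CPM in the other cells and at 0, 5.77, 12.2 and 9.15 CPM in the marker-positive cells.

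The villus-tip and fetal lists parted with time in bulk RNA. Of all genes, 35.8% rose and 39.7% fell in IR D7 organoids, 33.3 and 34.9% in non-IR D7, and 32.3 and 31.6% at D11. In IR D7 organoids 13 of 15 villus-tip genes rose and 1 fell (median 1.25), and at D11 2 of 14 rose and 7 fell (median -0.39). In non-IR D7 organoids 8 of 15 rose and 6 fell. The fetal and regenerative list had 18 of 19 genes higher in IR organoids both at D7 (median 2.35) and at D11 (median 2.37), and 17 of 18 in non-IR organoids. Of 12 proliferation genes 12 fell in IR D7 organoids (median -1.68), 9 fell and 1 rose in non-IR D7 organoids (median -0.81), and 1 fell and 3 rose at D11 (median -0.02).

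Of the 19 squamous list genes other than *Sprr1a*, 5 were measured in IR D7 organoids, with 4 higher and 1 lower with TGFB1. At D11 7 were measured and 7 were higher. Of all genes 35.8% were higher and 39.7% lower in IR D7 organoids, and 32.3% were higher at D11. Among keratins of stratified epithelium in bulk RNA, *Krt4* rose with TGFB1 mainly at D11, and *Krt14* is given at D7 only. *Krt4*, a keratin of stratified non-cornified epithelium, was at 0.332, 1.20 and 0.719 FPKM with vehicle at D11 and 81.9, 89.1 and 96.8 with TGFB1 (log2 effect 5.71, SE 0.16, adjusted p = 4.3e-08). In IR D7 organoids *Krt4* was at 0.683, 0.643 and 0.497 FPKM with vehicle and at a lowest of 0.699 and a median of 1.36 with TGFB1. The D11 effect on *Krt4* exceeded the D7 effect by 5.29 (SE 0.24, adjusted p = 1.6e-09). *Krt14* in IR D7 organoids was at 0.145, 0.0752 and 0.0745 FPKM with vehicle and 12.0, 9.96 and 12.6 with TGFB1 (3.51, SE 0.09, adjusted p = 3.9e-10). *Anxa8* was at 4.66, 4.87 and 6.04 against 166, 161 and 192 FPKM (4.82, SE 0.09, adjusted p = 4.3e-10). In the day 8 single cells only *Anxa8* of these was above the expression floor. *Krt14* had 42 UMIs in 8 of 329 marker-positive cells at 24 h, and *Krt4* had at most 6 UMIs in 1 marker-positive cell of a library.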

How the data were processed

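The single-cell files hold expected counts of UMIs per gene and cell, deposited by the authors as matrices with some fractional entries; STARsolo or STAR 2.7.10a is listed per the submitters' processing notes. The bulk files hold FPKM values that the authors deposited, with TopHat2 2.1.0 and Cuffnorm 2.2.1 listed in those notes. The notes list the builds mm9, GRCm39 and mm39 with no role. Peak files of chromatin accessibility were not used here. The cells and the gene lists were chosen with earlier results of these data known.

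Cells with at least 500 UMIs and at most 20% mitochondrial UMIs were kept. UMIs were summed per library over marker-positive and other cells and scaled to CPM; genes with a mean of at least 20 CPM were compared on log2(CPM + 5), with no count model and no test, since cells are not replicates and each time had 1 library. Intervals are exact 95% Poisson or Clopper-Pearson intervals. No doublet caller was run; cells over 3 times their library's median UMIs were left out as an alternative. The genes named are the 15 highest and 10 lowest by the smallest log2 ratio over the 4 libraries, and the 10 highest and 10 lowest over time, with the 5 that differed most from the other cells in each direction; some of these genes are not reported here.

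Bulk values were tested as log2(FPKM + 1) with limma 3.58.1 in R 4.3.3, for genes averaging 1 FPKM or more, at a Benjamini-Hochberg adjusted p under 0.05; depth is unknown for these files. A fold on this scale understates the change of low genes. The scripts were tested on simulated data. Alternatives covered the threshold, marker choice, pseudocount, filter, normalization, thinning, single libraries and a replicate block.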

Additional observations from a re-analysis of the deposited data

Results flagged for a closer look

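The TGFB1 effect on each of the 4 markers differed between conditions by limma's interaction term, as log2 differences with 3 libraries a group. Between IR and non-IR organoids at D7 the differences were 1.92 for *Ada*, 1.61 for *Il1rn*, 0.69 for *Anxa10* and -1.18 for *Sprr1a*. Between D11 and D7 after irradiation they were -4.25 for *Ada*, -2.26 for *Il1rn*, -0.48 for *Anxa10* and 0.72 for *Sprr1a*. Both sets use the D7 IR libraries, so they are not independent.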

How the results depend on the processing

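The marker-positive share at 0, 6, 15 and 24 h was 4.71, 5.23, 10.6 and 20.8% with a threshold of 3 and 2.01, 2.01, 4.88 and 8.84% with 10. It was 2.97, 2.08, 5.88 and 12.8% without *Ada*, 2.35, 2.12, 5.22 and 8.25% without *Anxa10*, and 2.63, 2.26, 6.09 and 12.7% when 2 markers were required. It was 2.52, 2.61, 6.64 and 13.8% without *Sprr1a*, and 3.44, 2.94, 6.99 and 12.5% without *Il1rn*. After thinning to 4000 UMIs it was 4.00, 3.98, 8.91 and 18.5%. Without *Sprr1a* the 6 h share was thus not below the 0 h share, and after thinning the 0 and 6 h shares were nearly level. Genes lower in marker-positive cells numbered 90 with a floor of 5 CPM and 133 with a threshold of 10, against 58. Genes higher at 24 h than at 0 h in marker-positive cells numbered 669 with a floor of 5 CPM, against 360. With each cell weighted equally, 284 were higher and 208 lower at 24 h. Of these, 240 and 173 were among the main calls of 360 and 304. Without the 24 h library, an alternative chosen after seeing the data, 269 were higher and 206 lower; the cause was not tested. The 25 named genes kept their call under each setting run.

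The numbers of the replicates did not pair the bulk libraries: correlations of same-numbered deviations ran from -0.0856 to 0.213. With the replicate block, 3985 genes were higher and 4432 lower in IR D7 organoids, and no marker lost its call. The D11 against D7 differences of *Anxa10* and *Sprr1a* lost the threshold without single libraries (*Sprr1a* adjusted p 0.0518 to 0.0653 in limma), and that of *Anxa10* also with a pseudocount of 0.1 (-0.40, adjusted p = 0.0737) and with quantile normalization (-0.17, adjusted p = 0.419).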
